A study of Mus musculus with 9 samples.

Results

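Very small embryonic-like cells (VSEL) of mouse bone marrow were compared with ESC-D3, a pluripotent mouse embryonic stem cell line, to describe which part of the embryonic stem cell profile they shared, lacked or exceeded. The comparison took 6 of the 9 arrays of the study, 3 labelled VSEL and 3 labelled ESC, chosen by their titles, and covered 18193 genes. VSEL were sorted from the marrow of C57BL/6 mice aged 4 weeks as cells that carried Sca-1 and lacked lineage markers and CD45. ESC-D3, here called ESC, comes from strain 129S2/SvPas and was kept on 0.1% gelatin with LIF, leukaemia inhibitory factor, at 10 ng/ml. The other 3 arrays held haematopoietic stem cells (HSC), sorted from marrow of the same strain and age as Sca-1-positive cells without lineage markers but with CD45. They enter here as a second reference. Every library was amplified from 20 cells by PCR and hybridised to an Affymetrix array that covers the mouse genome. The strain, the source in an animal or a culture dish and the cell type changed together between VSEL and ESC and cannot be told apart, and ESC stands for 1 line. No label tied a library to a separate mouse or culture, so each p-value reflects how far these libraries vary, and that variation may be technical.

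Embryonic stem cells keep themselves undifferentiated through a network of transcription factors around Oct4 (the product of Pou5f1), Sox2 and Nanog, and LIF sustains that network in culture. They divide with a short G1 phase, rely on glycolysis and make ribosomes at a high rate. VSEL were proposed as a rare marrow cell that keeps such embryonic features. Bone marrow otherwise holds blood cells at every stage: neutrophil, red cell and B cell precursors are its most abundant dividing cells.

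VSEL arrays 2 and 3 were nearly identical. Their values correlated at r = 0.989 across probe sets, and 1 probe set differed by more than 4-fold, while other pairs of arrays of a group had r from 0.831 to 0.957. They were averaged as 1 library, VSEL 2+3, so the tests rest on 2 VSEL, 3 ESC and 3 HSC libraries. The VSEL arrays also stood apart in their overall distribution: the upper quartile of log2 values was 6.63 to 6.69 on them and 7.11 to 7.18 on the others, and the lower quartile 3.89 to 3.95 against 3.67 to 3.73. The difference between the 3' and 5' Gapdh control probe sets, a sign of RNA and cDNA length, was 0.721 to 1.19 in VSEL. It was 0.177 to 0.275 in ESC and 0.50 to 0.75 in HSC. For Actb it was 0.70 to 0.95 in VSEL, 0.41 to 0.72 in ESC and 0.97 to 1.23 in HSC. VSEL thus did not stand alone in this measure, and its part in the results was not tested. All levels below are log2 values as deposited, so a difference of 1 is 2-fold. The paired values of a gene in VSEL are given in the order VSEL 1, VSEL 2+3, and values of ESC and HSC in the order of their library numbers. A gene is named as called, higher or lower, where limma gave a Benjamini-Hochberg adjusted p under 0.05 over all genes. The fit gives each gene 1 spread common to the cell types. On bright probe sets the SD of the difference from VSEL 1 was 2.06 for VSEL 2 and 2.16 for VSEL 3. Between arrays it was 0.49 to 0.54 in ESC and 0.71 to 0.72 in HSC. An SE or p-value can thus understate the uncertainty of a gene that varies between the VSEL libraries. With bulk libraries, fewer cells of a type and less RNA per cell cannot be told apart.

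The labels were first checked against marker genes. Ptprc, which encodes the CD45 of the gate, lay at 3.59 and 3.25 in VSEL, near the 3.17, 2.94 and 2.98 of ESC and far from the 13.40, 13.68 and 13.54 of HSC, as the sort on CD45 requires. Ly6a, which encodes Sca-1, had no probe set of its own in the annotation and gave no value. Zfp42 and Pou5f1, which mark undifferentiated embryonic stem cells, were bright in every ESC library. Zfp42 lay at 13.14, 13.13 and 13.04 and Pou5f1 at 12.94, 12.90 and 13.20. The HSC libraries had medians of 6.79 to 7.62 over 18 HSC and progenitor genes. Their medians were 9.85 to 10.73 over 16 T and NK cell genes and 12.23 to 12.77 over 17 late granule genes of neutrophils. HSC below therefore means the arrays of that label, and their content of mature blood cells was not tested.

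The upstream sequences of 4 genes are shown as single examples from the programmes described below. Zfp42 is a pluripotency gene that VSEL held below ESC, S100a9 a neutrophil gene with a large gain over ESC, Alas2 an erythroid gene and Rag1 a gene of lymphocyte precursors bright in VSEL alone. Each run is the 250 bases before the transcription start, 5' to 3' on the gene's strand, from RefSeq for build GRCm38.p6. Capitals mark exact matches, on either strand, to the octamer ATGCAAAT read by Oct factors, to AGATAA read by GATA factors and to CCAAT.
Zfp42, chr8:43307010-43307259, minus strand: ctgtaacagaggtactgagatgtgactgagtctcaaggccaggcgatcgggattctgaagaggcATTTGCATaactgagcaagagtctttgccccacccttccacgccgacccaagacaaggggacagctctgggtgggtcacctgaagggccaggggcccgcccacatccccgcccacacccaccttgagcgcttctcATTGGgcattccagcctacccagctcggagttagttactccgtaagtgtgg
S100a9, chr3:90695722-90695971, minus strand: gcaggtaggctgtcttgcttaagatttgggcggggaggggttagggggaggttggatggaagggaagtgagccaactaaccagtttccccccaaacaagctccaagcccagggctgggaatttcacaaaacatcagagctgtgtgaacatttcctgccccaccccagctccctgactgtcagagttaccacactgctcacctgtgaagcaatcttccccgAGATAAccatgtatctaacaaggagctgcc
Alas2, chrX:150547167-150547416, plus strand: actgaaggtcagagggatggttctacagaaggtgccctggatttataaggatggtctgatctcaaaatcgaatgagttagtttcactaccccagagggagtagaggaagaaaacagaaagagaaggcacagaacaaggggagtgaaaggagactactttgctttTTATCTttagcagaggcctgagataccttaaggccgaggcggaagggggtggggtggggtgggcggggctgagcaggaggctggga
Rag1, chr2:101649533-101649782, minus strand: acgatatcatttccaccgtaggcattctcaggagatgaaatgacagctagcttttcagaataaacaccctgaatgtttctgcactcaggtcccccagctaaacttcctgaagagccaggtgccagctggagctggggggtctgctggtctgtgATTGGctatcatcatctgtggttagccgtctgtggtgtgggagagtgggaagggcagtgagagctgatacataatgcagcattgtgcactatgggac
The octamer was present in 1.61% of 27025 promoter windows of this length, AGATAA in 10.3% and CCAAT in 34.5%. The octamer of Zfp42 was thus a rare match, while the CCAAT of Zfp42 and Rag1 was a common one. Among 95 promoters of genes bright in ESC and low in HSC, 3.16% held the octamer and 1.05% AGATAA. Among 64 promoters of the added genes defined below, 1.56% held the octamer and 12.5% AGATAA. The marked motifs are therefore not typical of either set. Promoter sequences matched 14452 of the 18193 genes. A match describes the letters only and shows no binding.

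VSEL differed from ESC in opposite ways on either side of the scale. Genes lower in VSEL lay a bounded distance below ESC, mostly between -3 and -1.5 log2 units, while differences on the higher side reached 10.47 units, for the neutrophil gene S100a9. In the test over all genes 3088 of 18193 (17%) were called, 1152 higher in VSEL (6.33%) and 1936 lower (10.6%). At least 2-fold changes made up 521 of the higher calls (2.86%) and 1885 of the lower calls (10.4%). The higher calls numbered 448 to 535 when an ESC library was left out and 740 without HSC 3. The lower calls were 1278 without ESC 2. Higher calls made up 37.3% of all calls, but 56.4% after another quantile normalization, 52.2% after cyclic loess and 54.9% with arrays centred on ribosomal proteins, which moved the median difference of all genes from 0.11 to 0.31. It moved the other way with other settings. Higher calls were 24.7% of all calls with VSEL and ESC libraries only and 28.1% with array weights. They were 26 to 27.4% without an ESC library and 21.2% among genes above 6.5 in at least 1 cell type. The balance between the directions therefore rests on the scaling, the libraries fitted, their weights and the filter.

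The bound on the lower side was sharp. The lowest mean difference was the -3.65 of Pmaip1, a gene of p53-dependent cell death, and 0 of 18193 genes lay at -4 or below, a count of means without a test. In the libraries singly, 9 genes were at least 4 units below the ESC mean in VSEL 1 and 6 in VSEL 2+3, but 269, 421 and 354 in the HSC libraries. On the upper side the cell types were closer: 391 and 427 genes lay at least 4 units above the ESC mean in the VSEL libraries and 513 to 525 in the HSC libraries. Of the 1936 genes called lower, 84.7% fell between -3 and -1.5. VSEL and HSC are both set against the same ESC libraries here, so these counts are not independent of each other.

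**Figure D1:**
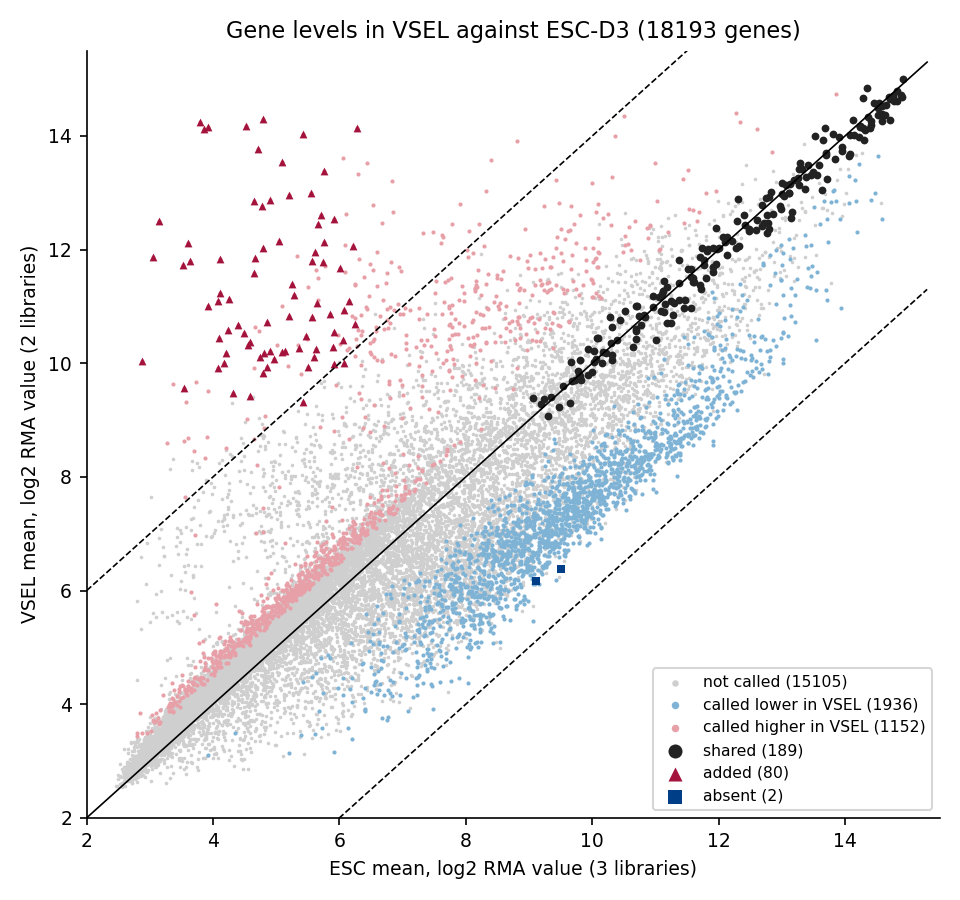
Mean log2 RMA value of each of 18193 genes in VSEL (vertical axis, 2 libraries) against ESC (horizontal axis, 3 libraries), coloured by call, with shared, added and absent genes marked. The solid line is equality and the dashed lines lie 4 units away: 0 genes lie below the lower dashed line, while 80 added genes rise at the upper left.

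**Figure D2:**
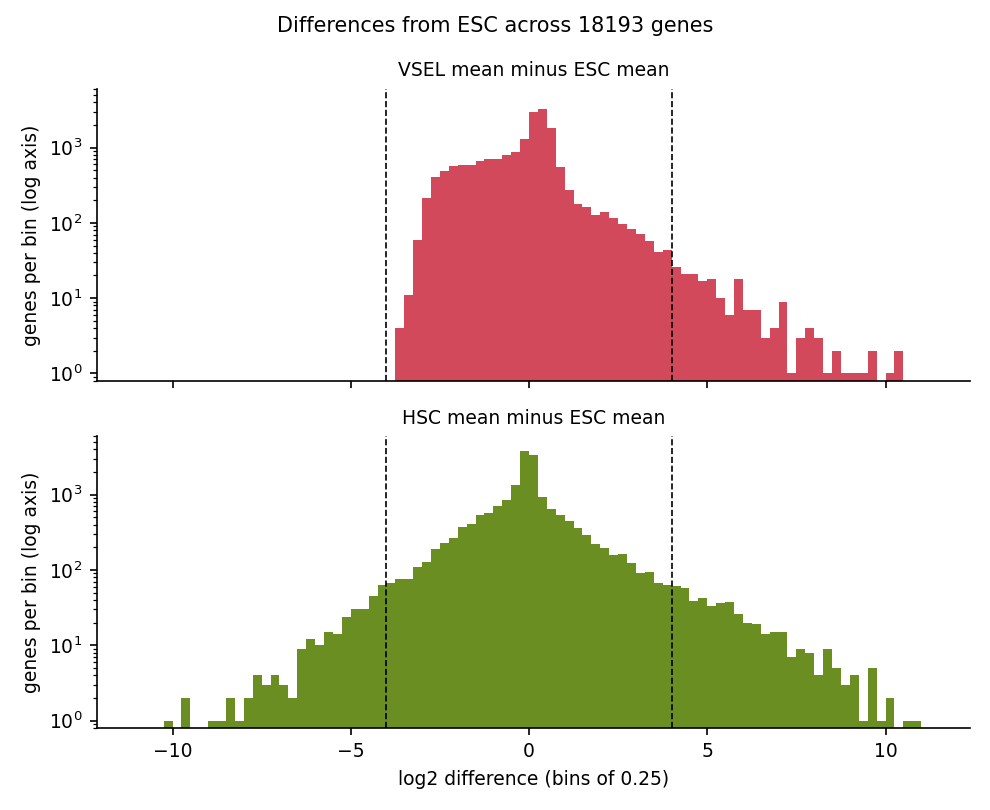
Number of genes per bin of 0.25 log2 units, on a log axis, for VSEL mean minus ESC mean (top) and HSC mean minus ESC mean (bottom). The VSEL distribution ends at -3.65 on the left while the HSC distribution runs to -10.12, and on the right they reach 10.47 and 10.78.

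Pluripotency genes of ESC lay at intermediate levels in VSEL. Zfp42 lay at 10.46 and 10.50 in VSEL, below all ESC libraries, and fell by 2.62 (SE 0.13, adjusted p = 4.4e-04). Pou5f1 lay at 10.21 and 9.80 in VSEL and fell by 3.01 (SE 0.27, adjusted p = 0.00167). In HSC Zfp42 was at 3.09, 2.95 and 2.91 and Pou5f1 at 3.27, 3.32 and 3.96, so the VSEL libraries stood wholly between both references. Of 29 measured pluripotency genes 20 were called lower, against 10.6% of all genes, and the median difference of the list was -2.42 against 0.11 over all genes. The shares of all genes called, 6.33% higher and 10.6% lower, are the background of every list count. This count was 19 to 21 with any library left out. The single higher call was Nr5a2, an orphan nuclear receptor, at 7.05 and 7.5 in VSEL and 6.54, 6.5 and 6.58 in ESC. It was lost without VSEL 2+3, ESC 1, ESC 2, ESC 3, HSC 1, HSC 2 or HSC 3 (adjusted p from 0.0512 to 0.0937), and the 3 other probe sets of the gene lay below ESC.

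Signals that act on this network in ESC followed the same course. Fgf4, the growth factor that primes embryonic stem cells for differentiation, was 7.60 and 7.53 in VSEL and 10.39, 10.28 and 10.51 in ESC, and fell by 2.83 (SE 0.20, adjusted p = 0.00101). Its receptor gene Fgfr1 fell by 2.59 (adjusted p = 0.00452), and Etv4, a transcription factor induced by FGF signals, fell by 2.08 (adjusted p = 0.00828). Ligand, receptor and target were thus all lower. The Nodal inhibitors Lefty1 and Lefty2 fell by 2.80 and 2.62 (adjusted p = 9.2e-04 and 0.00494), Tdgf1, the Nodal co-receptor, fell by 2.70 (adjusted p = 4.7e-04) and Bmp4, a ligand of the BMP pathway, fell by 2.01 (adjusted p = 0.00255). Nodal itself was low in both, at 6.58 and 7.0 against 7.37, 7.46 and 6.58, and was not called. In all 8 of 15 genes of the Nodal, FGF and BMP pathways were lower, against 10.6% of all genes, with a median difference of -2.08.

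In the LIF pathway the members split. Socs3, the feedback inhibitor induced by LIF, lay at 8.29 and 8.31 in VSEL and 10.93, 10.78 and 10.64 in ESC and fell by 2.48 (adjusted p = 0.00486). Jak2, a kinase of cytokine receptors that blood cells depend on, lay at 11.39 and 9.76 against 4.02, 4.45 and 4.24, a gain of 6.34 (SE 0.63, adjusted p = 0.00235). Stat3, the factor through which LIF acts, was 7.97 in VSEL 1 and 11.08 in VSEL 2+3, on either side of its 9.07, 9.52 and 9.19 in ESC. Pim1, a kinase gene downstream of Stat factors, was the other higher call of the 8 genes, but it was lost without VSEL 1, ESC 1, ESC 2, ESC 3, HSC 1, HSC 2 or HSC 3 (adjusted p from 0.0577 to 0.105).

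ESC-D3 also carried genes of primitive endoderm and of the basement membrane that this tissue lays down, and VSEL held these below ESC by nearly the same distance. The laminin chain gene Lama1 was 8.96 and 8.90 in VSEL, 11.97, 11.76 and 11.97 in ESC and 4.24, 4.68 and 4.78 in HSC. Col4a1, a chain of basement membrane collagen, was 8.84 and 8.84 against 11.63, 11.66 and 11.68, and Lamb1 was 9.12 and 9.16 against 11.53, 11.86 and 11.76. They fell by 2.98, 2.81 and 2.58 (adjusted p = 9.2e-04, 5.0e-04 and 7.1e-04), and the VSEL libraries nearly coincided in each. Dab2, an endocytic adaptor of endoderm, and Sox7, an endoderm transcription factor, fell by 2.71 and 2.60 (adjusted p = 0.008 and 0.00967). Foxa2, a factor of definitive endoderm, was low in every library and was not called. Of 13 genes 9 were lower (8 to 10 with any library left out), and the median difference was -2.64.

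Metabolic genes of the ESC profile were lower as well. In glycolysis 11 of 13 genes were lower, 8 to 11 with any library left out, with a median difference of -2.12. Ldhb, a lactate dehydrogenase gene, was 9.24 and 9.38 in VSEL, 12.24, 12.30 and 12.10 in ESC and 8.75, 9.21 and 9.85 in HSC, so VSEL and HSC overlapped. It fell by 2.90 against ESC (adjusted p = 0.00301). Pgam1, phosphoglycerate mutase, fell by 2.10 (adjusted p = 0.00183) and Aldoa, aldolase, fell by 2.12 (adjusted p = 0.00946). The 1 higher gene was Hk1, the hexokinase of red cells among other tissues, at 12.10 and 11.48 against 9.33, 10.30 and 10.41; this call was lost without VSEL 1 or ESC 2 (adjusted p from 0.0529 to 0.0867), and another probe set of Hk1 lay at -0.88. Hk2, the hexokinase gene bright in ESC, was 7.46 and 7.41 against 9.92, 9.03 and 10.12, and its lower call was lost without VSEL 1, VSEL 2+3, ESC 1 or ESC 3 (adjusted p from 0.0574 to 0.0651).

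Serine, one-carbon and cholesterol synthesis gave fewer calls. Asns, asparagine synthetase, was 11.04 and 10.43 in VSEL and 13.34, 13.26 and 13.02 in ESC and fell by 2.47 (adjusted p = 0.0028), while HSC were lower still at 7.96, 7.79 and 8.37. Gldc, which breaks down glycine, fell by 2.63 (adjusted p = 0.00928). Shmt1, which passes a carbon from serine to folate, fell by 2.71 on its brightest probe set (adjusted p = 0.00176), but 2 of its 4 probe sets lay 2.61 and 2.24 above ESC. Phgdh, the first enzyme of serine synthesis, did not separate: it was 12.35 in VSEL 1 and 8.95 in VSEL 2+3, with 12.12, 11.93 and 11.89 in ESC. Of 11 genes 5 were lower, the others being Mthfd1l and Psat1, with 3 lower without ESC 2 and 8 without VSEL 1. Mthfd1l lost its call without VSEL 1, VSEL 2+3, ESC 1, ESC 2 or ESC 3 (adjusted p from 0.081 to 0.108) and Psat1 without ESC 2 (adjusted p = 0.0529). In cholesterol synthesis 5 of 13 were lower: Fdft1, squalene synthase, fell by 2.75 (adjusted p = 0.00371), Hmgcs1 fell by 2.35 (adjusted p = 0.00477) and Mvd fell by 2.27 (adjusted p = 0.00359), while Cyp51 lost its call without VSEL 1, VSEL 2+3, ESC 1, ESC 2 or ESC 3 (adjusted p from 0.0532 to 0.0835) and Lss without VSEL 2+3, ESC 1 or ESC 3 (adjusted p from 0.0564 to 0.0657). That count was 3 without ESC 1, ESC 3 or VSEL 2+3.

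Of the genes that build ribosomes 9 of 17 were lower, against 10.6% of all genes. Of the listed genes of the finished ribosome 15 of 19 were shared with ESC. The medians of those 19 were 14.29 and 14.10 in VSEL, 14.37 to 14.41 in ESC and 14.33 to 14.48 in HSC. These values lie near the top of the scale in every library, and whether that hid differences was not tested. Nop56, a core protein of the box C/D particles that modify ribosomal RNA, was 9.57 and 9.78 in VSEL, 12.44, 12.57 and 12.16 in ESC and 10.55, 10.68 and 11.04 in HSC, and fell by 2.72 (SE 0.21, adjusted p = 0.00119). Npm1, an abundant nucleolar chaperone, was 12.68 and 13.08 against 14.39, 14.41 and 14.41 and fell by 1.53 (adjusted p = 0.00333). Gnl3, nucleostemin, fell by 2.72 (adjusted p = 0.00251) and Fbl, the methyltransferase of those particles, fell by 1.52 (adjusted p = 0.00452). The median difference of the 17 was -1.61, and 5 were lower without ESC 1 or ESC 2. The ribosomal protein genes called were Rps6, at 1.65, and Rpl6 and Rpl27, at -0.75 and -0.92, and these calls were lost without ESC 1 (adjusted p = 0.0791, 0.0541 and 0.0856). Among 21 proteasome genes 7 were lower with a median of -1.0, but 4 without ESC 1 and 3 without ESC 2, the last near the 10.6% of all genes. Psmb6, which carries a catalytic site of the standard proteasome, was 10.41 and 10.06 against 12.96, 12.93 and 12.56 and fell by 2.58 (adjusted p = 0.00176).

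Targets of p53 belonged to the lower side for 7 of 15 genes (5 to 8 with any library left out). Pmaip1, the gene with the largest fall of all, lay at 4.4 and 4.36 in VSEL and at 9.54, 7.48 and 7.08 in ESC, and fell by 3.65 (SE 0.77, adjusted p = 0.0257). The ESC libraries were themselves over 2 units apart, and the call was lost without VSEL 1, VSEL 2+3 or ESC 2 (adjusted p from 0.054 to 0.0721). Cdkn1a, the cell cycle inhibitor p21, was 7.83 and 8.24 against 10.36, 10.29 and 9.65 and 9.81, 10.45 and 9.88 in HSC, and fell by 2.06 (adjusted p = 0.00907). Phlda3, which restrains the kinase Akt after DNA damage, fell by 1.91 (adjusted p = 0.00586), and Ccng1, cyclin G1, fell by 2.92 (adjusted p = 0.00201).

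Among the 10 largest falls outside these lists, Supt20, a subunit of the SAGA coactivator complex, was 5.4 and 5.54 in VSEL, 9.81, 8.87 and 8.51 in ESC and 10.68, 10.46 and 9.91 in HSC, so VSEL lay below both references. Supt20 fell by 3.59 (SE 0.42, adjusted p = 0.00379), while 3 of its 7 probe sets, all dimmer, lay above ESC by up to 0.59. Serpinh1, a chaperone of collagen, and Gask1b, a Golgi-associated kinase relative, fell by 3.32 and 3.34 (adjusted p = 0.00417 and 0.001) on the log2 scale. Serpinh1 lay at 7.34 and 8.71 in VSEL and 6.08, 6.21 and 6.16 in HSC. Gask1b read 4.42 and 4.41 in VSEL and 3.87, 3.70 and 3.79 in HSC, values near the array background that have no firm order. Atad3a, a mitochondrial inner membrane ATPase, and Atp6v1c1, a subunit of the proton pump of endosomes and lysosomes, fell by 3.28 and 3.34 (adjusted p = 0.00107 and 0.00525). Mael, a gene of the piRNA pathway of germ cells, fell by 3.34 (adjusted p = 0.00533), and C9orf72, which takes part in vesicle traffic, fell by 3.58 (adjusted p = 0.00386).

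Genes of the ESC profile that VSEL lacked altogether were rare. A gene counted as part of the profile when every ESC library was at 9 or above, which held for 2897 genes, and as absent when every VSEL library was at 6.5 or below. That left 2 genes. Ctsc, the cathepsin C gene whose product activates granule proteases, was 6.47 and 6.28 in VSEL, 9.43, 9.57 and 9.53 in ESC and 10.62, 9.05 and 9.57 in HSC, and fell by 3.13 (SE 0.43, adjusted p = 0.00644); its 2 other probe sets, which were dimmer, differed by 0.06 and 0.40. Armt1, a carboxyl methyltransferase gene, was 6.34 and 6.01 against 9.05, 9.28 and 9.03, where HSC read 7.48, 8.22 and 3.31. It missed the threshold (adjusted p = 0.18). By the same levels 127 of the 2897 genes were absent from HSC. Singly, 15 of the 2897 were at or below 6.5 in VSEL 1 and 16 in VSEL 2+3, against 164, 257 and 211 in HSC 1, 2 and 3. The absent count was sensitive to the levels, with 290 genes at levels of 8 and 7 and 0 at 10 and 6. It also rested on single libraries, with 16 genes without VSEL 1, 15 without VSEL 2+3, 12 without ESC 3 and 7 without ESC 2.

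The 127 genes bright in ESC and at or below 6.5 in every HSC library show how uniform the distance was. For VSEL 1 the median of their differences from ESC was -2.54, and for VSEL 2+3 it was -2.49. In VSEL 1 the middle 80% of these genes ran from -2.95 to -1.90, and in VSEL 2+3 from -2.93 to -1.93. Of the 127, 118 were called lower, 122 lay wholly between HSC and ESC, and 121 differed by at most 1 unit between the VSEL libraries. For the last count the share over all genes was not counted. Of all 2897 genes at 9 or above in every ESC library, 34.6% were called lower. High ESC and low HSC values chose the 127 genes, which favours lower calls and places between the references. Those 2 counts are therefore no separate evidence. Grouped by ESC mean, the medians of the distance were -2.39 and -2.26 in the VSEL libraries for 45 genes at 9 to 10. They were -2.49 and -2.47 for 46 genes at 10 to 11, and -2.74 and -2.81 for 36 genes above 11. The ESC mean sets these groups and also enters the distance, so a trend with ESC level is partly built in. The genes with a mean distance above -1 were Bub1, Cenpp and Orc1. Bub1 lay 0.18 above the ESC mean in VSEL 1 and at -0.37 in VSEL 2+3, and Cenpp 0.83 and 0.083 above it. Orc1 departed in 1 library alone: it lay 1.75 above the ESC mean in VSEL 1 but at -2.36, the common distance, in VSEL 2+3. Genes with a lower mean could also lie near ESC in 1 VSEL library alone, at 0.27 and -2.58 or at -2.46 and -0.25. What set this common distance was not tested.

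With these few libraries, few genes could be shown to lie at equal level in VSEL and ESC. A gene was called shared when every VSEL and ESC library was at 9 or above and the 95% interval of the difference lay within -1 to 1. This held for 189 of the 2897 ESC genes (6.52%), while 1185 were at 9 or above in every VSEL library. Of the 1185, 210 were called lower and 94 higher. Genes outside these calls and the shared class were shown neither alike nor different. The 6.52% is thus no estimate of all sharing. HSC were also at 9 or above for 176 of the 189 and were at 6.5 or below for 0. The shared genes were the abundant ones, with a median ESC mean of 12.21, and 27 of them carry symbols of ribosomal proteins. Tpt1, a translationally controlled protein gene, was 15.06 and 14.93 in VSEL and 14.90, 14.92 and 14.96 in ESC, a difference of 0.07 with an interval from -0.24 to 0.37. Eef1a1, an elongation factor of translation, differed by -0.17 and Rplp0, of the ribosomal stalk, by -0.05. In HSC Tpt1 was at 15.05, 15.06 and 14.95, Eef1a1 at 14.57, 14.74 and 14.71 and Rplp0 at 14.73, 14.67 and 14.58, so none of these set VSEL and ESC apart from HSC. Many ribosomal protein genes have near-identical copies in the genome, so single members are uncertain.

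Only 2 shared genes were called, Rbmxl1, an RNA-binding protein retrogene, and Snrpg, a core spliceosome protein. Rbmxl1 differed by -0.59 (adjusted p = 0.0313) and Snrpg by -0.58 (adjusted p = 0.032). Rbmxl1 lost its call without VSEL 1, VSEL 2+3, ESC 1, ESC 2 or ESC 3 (adjusted p from 0.0662 to 0.081) and Snrpg without VSEL 1, VSEL 2+3, ESC 1, ESC 2, ESC 3 or HSC 3 (adjusted p from 0.0505 to 0.0909). A stricter interval of -0.5 to 0.5 left 27 shared genes. Without probe sets that can match several transcripts, the count was 97. The respiratory chain added 5 shared genes of 27, among them Cycs, cytochrome c, at 12.34 and 12.62 against 12.81, 13.00 and 12.55, and Cox4i1 at 13.45 and 13.85 against 14.07, 14.12 and 13.97. The 5 called lower of the 27 were Uqcrb, Sdhb, Cyc1, Ndufb5 and Atp5b. Uqcrb fell by 2.45, Sdhb fell by 1.85 and Cyc1 fell by 1.33 (adjusted p = 0.0142, 0.00735 and 0.0136), while Ndufb5 and Atp5b lost their calls without single libraries, for example without ESC 1 (adjusted p = 0.108 and 0.0737). The count was 3 without any 1 of the ESC libraries and 11 without VSEL 1.

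In 12 of the 189 shared genes every HSC library lay at least 1 unit below every VSEL and ESC library. These were Abce1, Acp1, Cdc20, Dut, H2ax, Lcmt1, Mkrn1, Paics, Rps27l, Snrnp40, Ube2c and Utp18, picked out after their values were seen. Ube2c, the ubiquitin-conjugating enzyme that lets cells leave mitosis, was 13.85 and 13.55 in VSEL, 13.69, 13.61 and 13.78 in ESC and 11.66, 12.09 and 11.97 in HSC. Dut, which keeps uracil out of DNA, was 12.60 and 12.65 in VSEL, 12.78, 12.64 and 13.14 in ESC and 10.58, 10.35 and 9.97 in HSC. Paics, an enzyme of purine synthesis, was 12.29 and 12.31 in VSEL, 12.78, 12.75 and 12.76 in ESC and 10.53, 10.42 and 11.00 in HSC. Several of the 12 were shared on their brightest probe set while dimmer ones lay below ESC. In Acp1 3 of 6 probe sets lay at -1.01, -0.85 and -0.64, in Mkrn1 3 of 6 at -0.50, -1.57 and -1.48, and in Snrnp40 1 of 2 at -1.0. For Cdc20, without probe sets that can match several transcripts its difference was -2.43 (adjusted p = 0.00181).

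DNA replication genes lay near the ESC level in VSEL, and 4 of 31 were called higher, against 6.33% of all genes, a count that fell to 1 without ESC 2, ESC 3 or VSEL 2+3. The list median of 31 genes was 11.26 and 10.86 in the VSEL libraries, 10.89 to 11.24 in ESC and 8.92 to 9.26 in HSC. Of the 31, 5 were shared: Cdt1, Fen1, Mcm5, Mcm7 and Pcna. Pcna, the sliding clamp of the polymerases, was 14.50 and 14.06 in VSEL and 14.13, 14.04 and 14.23 in ESC. Cdc45, which activates the replicative helicase, was 10.69 and 10.73 against 8.48, 8.61 and 8.97 and 7.39, 7.59 and 7.83 in HSC, so VSEL lay above both, and rose by 2.02 over ESC (SE 0.21, adjusted p = 0.00266). The other higher calls, Prim1 of the primase and Rrm1 and Rrm2 of ribonucleotide reductase, rested on single libraries and probe sets. Without ESC 2 their adjusted p were 0.0588, 0.106 and 0.128, and dimmer probe sets lay below ESC, by -2.33 for Rrm1 and by -2.49 and -2.13 for Rrm2. Mcm3, of the helicase, was the 1 lower call, also lost without ESC 2 (adjusted p = 0.0936), and 1 of its 5 probe sets lay above ESC. There were 2 higher calls without ESC 1 and 6 lower calls without VSEL 1.

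At the G1 to S transition, Ccne2 and E2f2 were the higher calls among 14 genes, and these 2 held with any library left out. Ccne2, an E-type cyclin, was 8.35 and 8.91 in VSEL, 3.93, 4.10 and 2.61 in ESC and 5.27, 3.47 and 4.32 in HSC, a gain of 5.09 over ESC (SE 0.65, adjusted p = 0.00506). E2f2, an activator of S phase genes, was 11.57 and 11.45 against 8.52, 8.42 and 8.55 and 9.79, 8.64 and 8.63, a gain of 3.01 (SE 0.36, adjusted p = 0.00436). Both genes were thus above each reference in both VSEL libraries. Of the inhibitors of cyclin-dependent kinases, Cdkn2d was 10.71 and 12.43 in VSEL, 8.46, 8.14 and 8.43 in ESC and 11.46, 11.10 and 11.39 in HSC, a gain of 3.23 over ESC (adjusted p = 0.00837). Cdkn2c gained 5.11, from 5.04, 5.51 and 4.74 to 9.90 and 10.50, but the call was lost without VSEL 1, VSEL 2+3, ESC 1, ESC 2 or ESC 3 (adjusted p from 0.0505 to 0.0666). Ezh2, the methyltransferase of Polycomb complex 2, rose by 1.84 over ESC (adjusted p = 0.0105). It was the 1 higher call of 18 Polycomb genes, against 6.33% of all genes, and went against its list. Of the 18, 3 were lower (1 to 5 with any library left out), against 10.6% of all genes. Their median difference was -1.07. Of 23 mitosis genes Kif11, a spindle motor, and Mki67, the proliferation marker Ki-67, were higher and Aurka, Birc5 and Ndc80 lower, counts near the 6.33% and 10.6% of all genes. Each of these calls was lost in some leave-outs: Kif11 without VSEL 2+3, ESC 1 or ESC 2 (adjusted p from 0.0706 to 0.08), Mki67 without VSEL 1, VSEL 2+3, ESC 1, ESC 2, ESC 3 or HSC 3 (adjusted p from 0.0565 to 0.123), Aurka without VSEL 2+3 or ESC 3 (adjusted p from 0.0531 to 0.0582), Birc5 without VSEL 1, VSEL 3, VSEL 2+3, ESC 1, ESC 2, ESC 3, HSC 1, HSC 2 or HSC 3 (adjusted p from 0.0562 to 0.126) and Ndc80 without VSEL 1, VSEL 2+3, ESC 1 or ESC 2 (adjusted p from 0.0627 to 0.0735). Without ESC 1 or ESC 2 the list gave 0 higher and 1 lower.

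**Figure D3:**
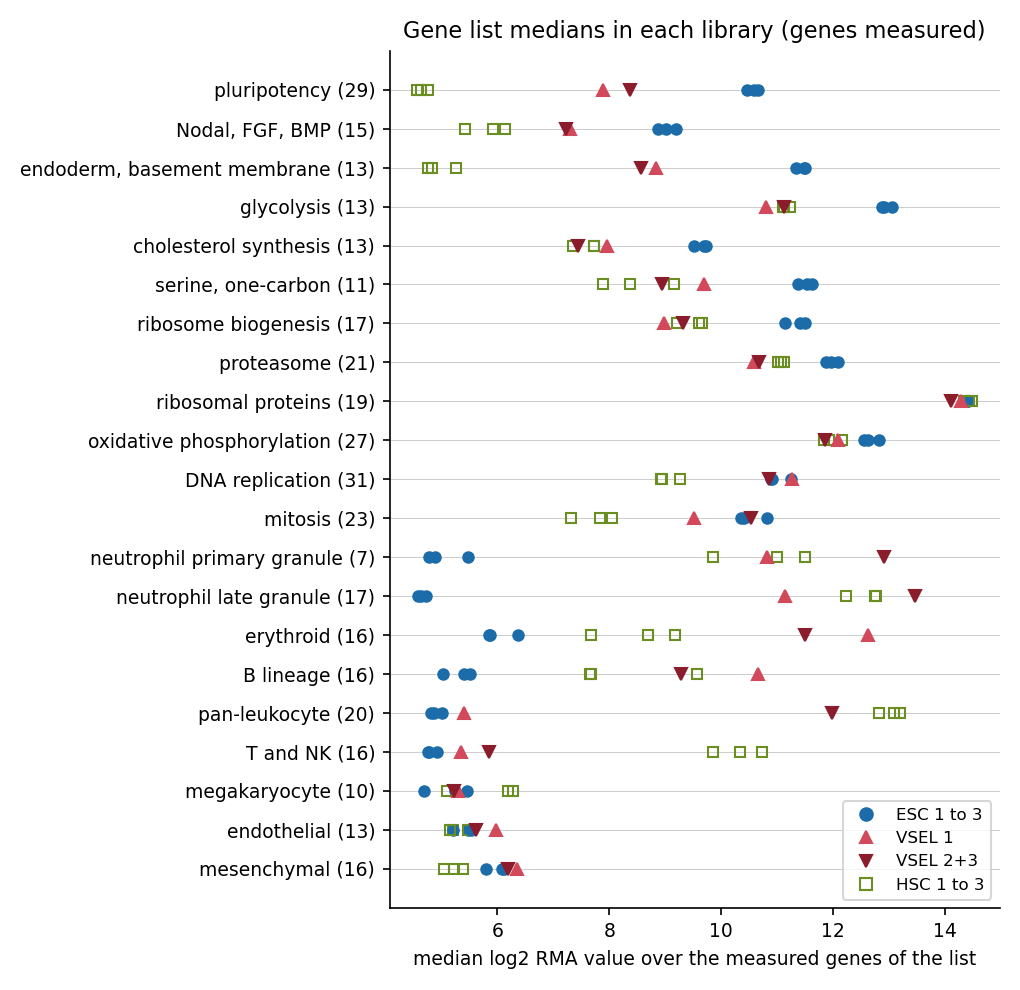
Median log2 RMA value of 21 gene lists in each library: filled circles ESC 1 to 3, triangles VSEL 1 (up) and VSEL 2+3 (down), open squares HSC 1 to 3, with the number of measured genes in brackets. ESC lists sit about 2 units lower in both VSEL libraries, replication genes lie near ESC, and neutrophil, erythroid and B lineage lists lie far above ESC.

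Another set of genes was bright in VSEL and low in ESC. A gene counted as added when every ESC library was at 6.5 or below and every VSEL library at 9 or above. This held for 80 genes, or 0.954% of the 8383 genes low in ESC. Of the 80, 79 were called higher, but the same values chose the genes and gave the calls. That count is therefore no separate evidence of a gain. The exception was Iglv1, an immunoglobulin light chain gene segment. HSC were at 9 or above for 41 of the 80, at 6.5 or below for 5 and between for 34. In 37 genes every HSC library lay below both VSEL libraries and in 13 above both. Across the 80 genes VSEL 2+3 was above VSEL 1 in 44 and below it in 36. By 1 VSEL library alone the count was larger, 239 without VSEL 1 and 202 without VSEL 2+3.

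Of 17 late granule genes of neutrophils 11 were higher, against 6.33% of all genes. S100a9, a subunit of the neutrophil protein calprotectin, was 13.42 and 15.09 in VSEL, 3.91, 3.76 and 3.68 in ESC and 14.29, 14.70 and 14.71 in HSC. It rose by 10.47 over ESC (SE 0.46, adjusted p = 2.8e-04). ESC values near 4 or below, as for S100a9, Lcn2 and Lyz1, lie near the array background, so the sizes of such gains depend on each probe set's floor and have no firm order. Lcn2, lipocalin 2 of the secondary granules, was 13.65 and 14.65 against 4.09, 3.69 and 3.97 and rose by 10.23 (SE 0.30, adjusted p = 1.2e-04). S100a8, the partner of S100a9, rose by 9.65, Ngp by 9.50, the lactoferrin gene Ltf by 9.05 and the cathelicidin gene Camp by 7.86 (adjusted p = 1.8e-04, 1.3e-04, 3.1e-04 and 3.1e-04). Every one of these was higher in VSEL 2+3 than in VSEL 1, with HSC between or near them. Lyz1 and Lyz2, near-identical lysozyme genes whose probes may share signal, rose by 10.27 and 8.62 (adjusted p = 1.8e-04 and 3.1e-04).

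Genes of the earlier, promyelocyte stage were higher too. Mpo, the myeloperoxidase of primary granules, was 11.55 and 14.17 in VSEL, 4.57, 4.54 and 4.82 in ESC and 12.40, 12.69 and 12.96 in HSC and rose by 8.22 (SE 0.70, adjusted p = 0.00156). Elane, neutrophil elastase, was 11.49 and 13.57 against 5.95, 5.96 and 5.84 and Ctsg, cathepsin G, 10.82 and 12.90 against 4.81, 4.47 and 4.71, rises of 6.61 and 7.20 (adjusted p = 0.0015 and 0.00222). Of 7 primary granule genes 5 were higher, with a median difference of 6.61, and the median of the 17 late granule genes was 7.86. Not every neutrophil gene was measured as present. Gfi1, a transcription factor of neutrophil precursors, was 2.95 and 3.35 in VSEL and 9.05, 9.18 and 9.22 in HSC, and Itgam, the integrin of mature myeloid cells, was 4.26 and 3.87. Mmp8, a late granule collagenase, was bright in VSEL 2+3 alone, at 4.2 in VSEL 1 and 11.45 in VSEL 2+3. For monocyte genes 2 of 14 were higher, Irf8 and Spi1, transcription factors of myeloid and B cells. Irf8 lay at 10.00 and 10.08 in VSEL and Spi1 at 9.77 and 11.60 (adjusted p = 0.00142 and 0.00517); without VSEL 1 there were 5.

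Erythroid genes were higher than in ESC, and their values also lay above those of HSC, a difference that was not tested. Alas2, which starts haem production in red cell precursors, was 13.43 and 12.33 in VSEL, 4.74, 4.59 and 5.35 in ESC and 7.24, 8.82 and 9.03 in HSC, and rose by 7.98 over ESC (SE 0.62, adjusted p = 0.00118). Klf1, the master transcription factor of the lineage, was 14.30 and 11.63 against 5.55, 5.20 and 4.83, and Ermap, a red cell membrane protein, 13.22 and 12.00 against 6.04, 5.36 and 5.71, rises of 7.77 and 6.91 (adjusted p = 0.00283 and 9.2e-04). Slc4a1, the anion exchanger band 3, rose by 7.55 and Car1, a carbonic anhydrase, by 6.93 (adjusted p = 0.00196 and 0.00156). Both VSEL libraries lay above every HSC library for these genes. Of 16 erythroid genes 11 were higher (10 to 12 with any library left out), with a median difference of 4.02. VSEL 1 was the brighter library for most of them, the reverse of the neutrophil genes: the list medians were 12.62 in VSEL 1 and 11.50 in VSEL 2+3. Gata1, the GATA factor of red cells, was bright only in VSEL 1, at 11.26 in VSEL 1 and 6.03 in VSEL 2+3.

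B lineage genes of the precursor stage formed the next group. Igll1 and Vpreb1, which form the surrogate light chain of the pre-B cell receptor, were both bright. Igll1 lay at 13.17 and 11.72 in VSEL and 5.43, 5.60 and 5.96 in ESC, and Vpreb1 at 11.27 and 9.49 in VSEL and 4.18, 4.57 and 4.99 in ESC. They rose by 6.78 and 5.80 (adjusted p = 0.00496 and 0.00229), and HSC lay lower, at 8.44, 6.69 and 5.53 for Igll1 and 6.65, 7.55 and 7.43 for Vpreb1. Rag1, which cuts antigen receptor genes for rearrangement, was 11.00 and 9.09 in VSEL, 2.84, 3.09 and 2.69 in ESC and 2.96, 2.98 and 2.99 in HSC, a rise of 7.17 over ESC (SE 0.51, adjusted p = 0.001). Vpreb3, of the pre-B cell, and Ighm, the heavy chain of IgM, rose by 7.08 and 6.37 (adjusted p = 9.2e-04 and 0.0014), and Ighm was also bright in HSC at 13.77, 13.82 and 13.88. The B cell genes Cd22 and Pax5 were not called: Cd22 lay at 6.06 and 6.08 in VSEL and Pax5 at 5.49 and 5.70, and the Pax5 probe set read 5.76, 5.38 and 5.35 in HSC as well. In all 8 of 16 genes were higher (6 to 9 with any library left out), with a median difference of 4.18.

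Of 15 genes of MHC class I and the interferon response 4 were higher, against 6.33% of all genes. B2m, the invariant chain of MHC class I, was 14.28 and 14.43 in VSEL, 10.09, 11.05 and 10.38 in ESC and 14.75, 14.92 and 14.78 in HSC and rose by 3.85 (SE 0.28, adjusted p = 0.00105). Psmb8, a catalytic subunit of the immunoproteasome, was 12.02 and 12.23 against 6.04, 5.65 and 5.59 in ESC and 13.36, 12.98 and 13.12 in HSC. Psmb8 rose by 6.37 over ESC (SE 0.20, adjusted p = 1.2e-04), while Psmb6 of the standard proteasome was lower. The classical class I genes H2-K1 and H2-D1 rose by 3.64 and 5.10 (adjusted p = 0.00167 and 0.0028); they are near-identical to other class I genes and differ between strains, so their values are uncertain. Of the interferon-induced genes, Irf7 was 6.00 and 4.85 in VSEL and 10.23, 9.71 and 10.26 in HSC, Ifit3 was 6.00 and 6.15 in VSEL and 8.71, 9.44 and 8.58 in HSC, and neither was called against ESC. Without VSEL 2+3 the higher calls of the 15 genes were 8. The 1 lower call, Irf1, an interferon response factor, was lost without VSEL 1, VSEL 3, ESC 1, ESC 2 or ESC 3 (adjusted p from 0.05 to 0.0676). For 6 MHC class II genes the list medians were 6.85 in VSEL 1 and 10.65 in VSEL 2+3. The 1 higher call among them was H2-Eb1, a class II beta chain, at 9.94 and 11.79 in VSEL and 7.46, 6.17 and 7.38 in ESC, and it was lost without VSEL 2+3 or ESC 2 (adjusted p from 0.054 to 0.0578). Without VSEL 1 there were 4.

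Of 18 HSC and progenitor genes 5 were higher, against 6.33% of all genes, and 2 of these calls, Lyl1 and Lmo2, held with any library left out. Lyl1 and Lmo2, partners in the stem cell and erythroid transcription complex, were bright, Lyl1 at 10.99 and 12.57 in VSEL and Lmo2 at 12.47 and 10.78, rises of 6.04 and 4.64 over ESC (adjusted p = 0.00348 and 0.00436). Tal1 of the same complex was 9.48 and 10.97 against 4.81, 4.89 and 5.03, but its call was lost without VSEL 2+3, ESC 1, ESC 2 or ESC 3 (adjusted p from 0.0589 to 0.0779). Hlf, Meis1 and Mecom, which mark long-term HSC, were not called, with Hlf at 4.71 and 5.28 in VSEL, Meis1 at 5.54 and 5.46 and Mecom at 5.36 and 5.94. The other higher calls were Hoxa9, a homeobox gene of progenitors, and Hhex, a homeobox gene of blood and endoderm. Hoxa9 lost its call without VSEL 1, VSEL 3, VSEL 2+3, ESC 1, ESC 2, ESC 3, HSC 1 or HSC 3 (adjusted p from 0.0552 to 0.139) and Hhex without VSEL 2+3, ESC 1 or ESC 3 (adjusted p from 0.0513 to 0.0601). The count was 2 without ESC 1 or ESC 3 and 3 without ESC 2.

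Lists of other cells that a marrow gate could hold had medians near the ESC level. The list medians in VSEL 1 and VSEL 2+3 were 5.35 and 5.85 for 16 T and NK cell genes, against 9.85 to 10.73 in HSC. For 10 megakaryocyte genes they were 5.30 and 5.23, for 13 endothelial genes 5.97 and 5.61, and for 16 mesenchymal genes 6.35 and 6.18. Cd3g of the T cell receptor complex was 4.18 and 4.38 in VSEL, Pf4 of platelets 4.85 and 4.79, Cdh5 of endothelium 5.32 and 4.77 and Col1a1 of stroma 4.75 and 5.29. Medians can hide single bright genes. By the levels of the added genes, 2 T and NK, 1 endothelial and 1 mesenchymal gene were bright in VSEL 2+3 alone. Over all 18193 genes this held for 138. The calls in these lists were few. Of the T and NK genes Cd4 and Gzmb, a T cell co-receptor and a granule protease, were higher, by 0.81 and 0.87, and both stayed below 8 in VSEL. Cd4 lost its call without VSEL 1, VSEL 2+3, ESC 1, ESC 2, ESC 3 or HSC 3 (adjusted p from 0.0613 to 0.0981). Gp1bb of platelets was higher by 0.65, a call lost without VSEL 1, VSEL 3, ESC 1, ESC 2, ESC 3, HSC 1, HSC 2 or HSC 3 (adjusted p from 0.0514 to 0.0968). Of the mesenchymal genes Alpl, alkaline phosphatase, and Pdgfra, a receptor of platelet-derived growth factor, were lower, 2 of 16 and thus near the 10.6% of all genes. Alpl, which embryonic stem cells also express, fell by 2.07, a call lost without VSEL 1, VSEL 2+3, ESC 1, ESC 2 or ESC 3 (adjusted p from 0.0505 to 0.0795), and Pdgfra fell by 2.10, a call lost without VSEL 2+3 or ESC 1 (adjusted p from 0.0537 to 0.0705). Of the endothelial genes 0 of 13 were called by limma, and 1 was higher at an unadjusted p under 0.05. Cxcl12, a chemokine of marrow stroma, was 8.10 and 7.44 in VSEL and 6.98, 4.89 and 4.97 in ESC and was not called (adjusted p = 0.0801).

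**Figure D4:**
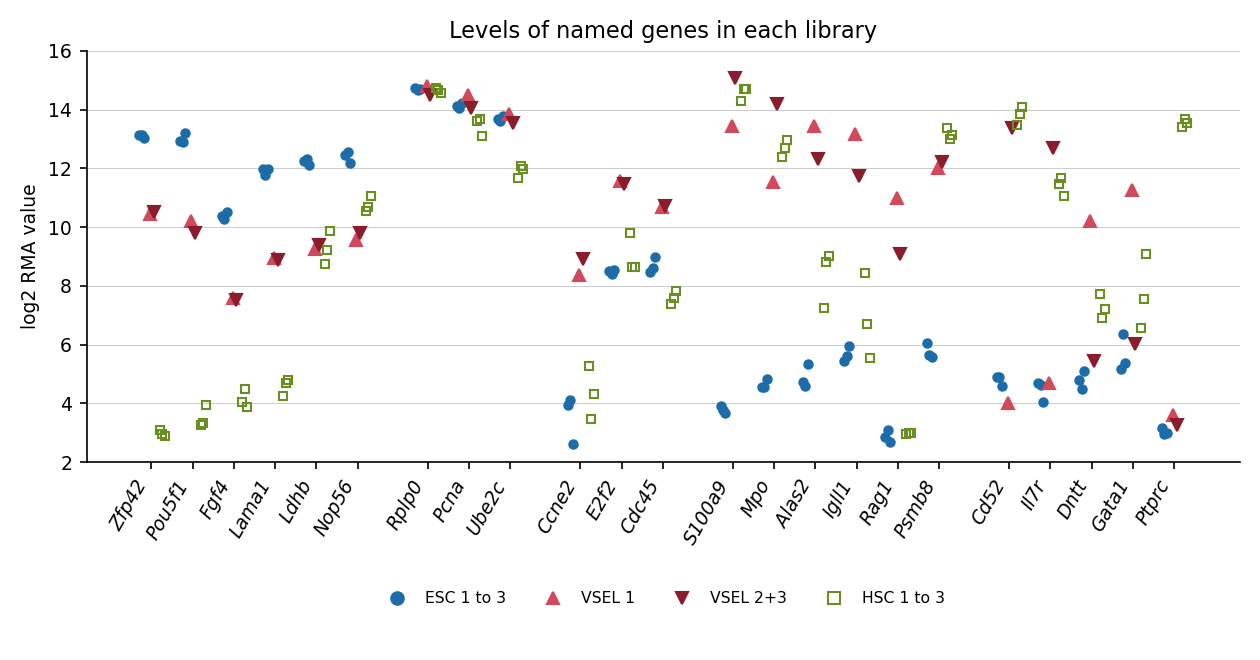
Log2 RMA value of 23 genes in every library, grouped from left as ESC genes lower in VSEL, shared genes, cell cycle genes, genes added in VSEL, and genes split between the VSEL libraries with Ptprc last. Circles are ESC, triangles VSEL 1 (up) and VSEL 2+3 (down), open squares HSC. ESC genes agree between the VSEL libraries, whereas Cd52, Il7r, Dntt and Gata1 are bright in only 1 of them.

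Beyond the 80 added genes, others were bright in 1 VSEL library only. By the same levels 103 genes were added in VSEL 1 alone and 138 in VSEL 2+3 alone; these sets rest on 1 library each and were not tested. Pan-leukocyte genes showed the split most plainly, with list medians of 5.41 in VSEL 1 and 11.98 in VSEL 2+3. Cd52, a short surface glycoprotein of leukocytes, was 4.02 in VSEL 1 and 13.37 in VSEL 2+3, with 4.89, 4.90 and 4.58 in ESC and 13.47, 13.85 and 14.08 in HSC. Tyrobp, a signalling adaptor of myeloid and NK cells, was 4.31 in VSEL 1 and 13.62 in VSEL 2+3, and Lcp1, an actin-bundling protein of leukocytes, 3.67 in VSEL 1 and 12.62 in VSEL 2+3. Other pan-leukocyte genes were bright in both, among them Cytip, which regulates leukocyte adhesion, at 11.52 and 12.16 in VSEL, a rise of 7.72 over ESC (adjusted p = 1.2e-04). Of 20 pan-leukocyte genes 8 were higher, and 15 without VSEL 1.

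The B lineage divided in both directions. Dntt, which adds bases to rearranging antigen receptor genes, was 10.20 in VSEL 1 and 5.45 in VSEL 2+3, and Fcrla, a B cell Fc receptor relative, 11.77 in VSEL 1 and 5.41 in VSEL 2+3, both bright in VSEL 1 alone. Il7r, the interleukin 7 receptor of lymphoid precursors, was 4.70 in VSEL 1 and 12.69 in VSEL 2+3, and Ms4a1, which encodes CD20, 3.64 in VSEL 1 and 10.66 in VSEL 2+3, both bright in VSEL 2+3 alone. The largest gaps in VSEL 1 included Ap4s1, a vesicle adaptor subunit, at 12.28 in VSEL 1 and 3.96 in VSEL 2+3, Ptger3, a prostaglandin receptor, at 10.81 in VSEL 1 and 2.86 in VSEL 2+3, and Cd93, a receptor of early B and stem cells, at 12.25 in VSEL 1 and 4.48 in VSEL 2+3. In VSEL 2+3 they included Ccl6, a myeloid chemokine, at 4.81 in VSEL 1 and 13.04 in VSEL 2+3 and Fcgr3, an IgG receptor, at 4.14 in VSEL 1 and 11.93 in VSEL 2+3. Cldn5, a tight junction gene of endothelium, was also bright in VSEL 2+3 alone, at 5.42 in VSEL 1 and 11.35 in VSEL 2+3, while ESC and HSC were at 5.29, 4.89 and 5.0 and 4.99, 4.98 and 4.82. None of these genes was called.

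Set side by side, the ESC genes and the blood genes differed in how well the VSEL libraries matched each other. Of the 127 ESC genes silent in HSC 121 lay within 1 unit of each other in the VSEL libraries. Of 218 blood genes, at 9 or above in every HSC library and at 6.5 or below in every ESC library, 117 did. The share within 1 unit over all genes was not counted, so these counts have no baseline. Both VSEL libraries were at 9 or above for 41 of the 218 blood genes (18.8%) and at 6.5 or below for 99. Genes low in both can match near the array background. Another 18 were bright in VSEL 1 alone and 33 in VSEL 2+3 alone. Over all genes VSEL 2+3 was at least 3 units above VSEL 1 for 840 genes and at least 3 units below it for 830.

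**Figure D5:**
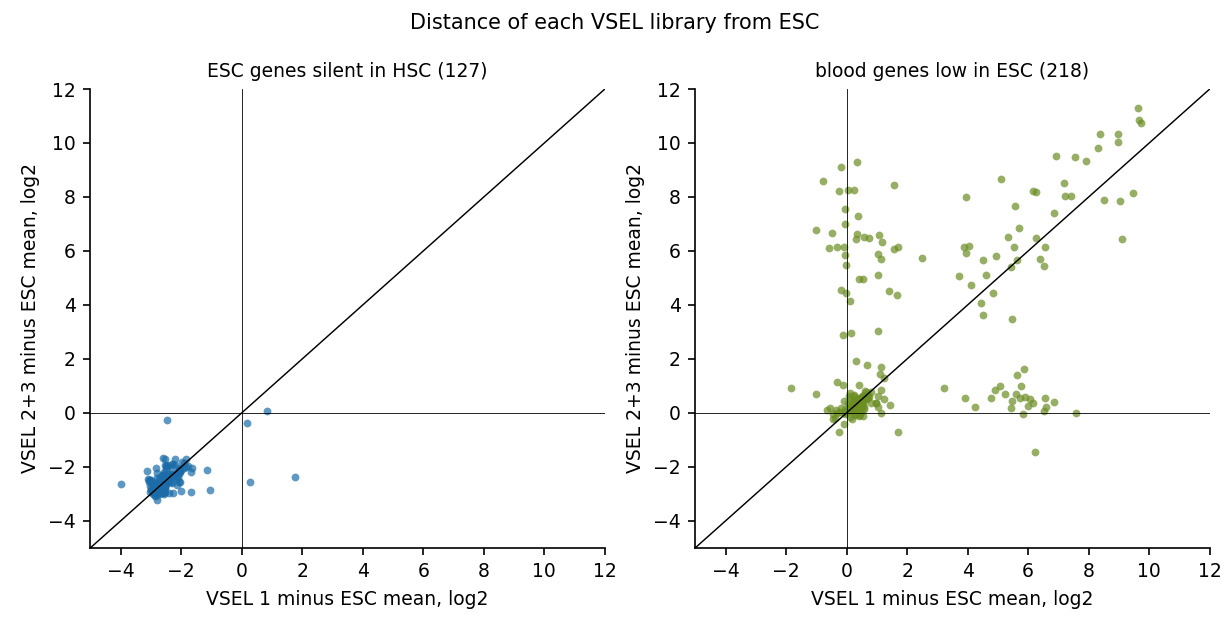
Each gene's log2 distance from the ESC mean in VSEL 1 (horizontal) and VSEL 2+3 (vertical), for 127 ESC genes silent in HSC (left) and 218 blood genes low in ESC (right), with the line of equality. Most ESC genes lie in a tight cluster near -2.5 on both axes, while the blood genes fall along both axes and the diagonal.

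Finally, 5 genes were bright in VSEL and low in both references. Besides Rag1 these were Ackr1, the Duffy chemokine receptor of red cells, at 10.47 and 10.33 with 6.00, 6.00 and 6.16 in ESC and 5.62, 5.84 and 5.60 in HSC, and Ypel4, a member of the yippee family, at 10.01 and 9.65 with 4.73, 4.75 and 4.92 in ESC. Slc22a4, a carnitine and ergothioneine transporter, was 9.10 and 10.04, and the unnamed transcript 5430401H09Rik 11.46 and 10.54. They rose over ESC by 4.35, 5.03, 6.02 and 7.08 (SE 0.15, 0.20, 0.64 and 0.30; adjusted p = 1.3e-04, 1.8e-04, 0.00289 and 2.3e-04). All 5 were called with any library left out. They were picked by these same values, so the calls are no separate evidence of a gain.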

How the data were processed

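The study holds 9 arrays, 3 each of VSEL, ESC and HSC. The authors deposited log2 values from RMA, which corrects background, quantile-normalises and summarises probes; RMA and Partek 6.5 are named per the submitters' processing notes, and no other step is given in the sources used here. RMA is meant to make the distributions of arrays alike, so levels are relative to each array's total. The deposited VSEL arrays still differed from the others in their quartiles, as given above, and the reason was not tested. Of 45101 probe sets, 64 controls were left out, and 34945 paired with 1 gene in the platform annotation. Each of 18193 genes took its probe set with the highest mean; 9010 had several, and dimmer ones can disagree.

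VSEL arrays 2 and 3 were averaged, and limma 3.58.1 in R 4.3.3 fitted the VSEL, ESC and HSC libraries together (5 residual degrees of freedom) with Benjamini-Hochberg adjustment over all genes, after the method was tested on simulated data. A call is an adjusted p under 0.05. With 2 VSEL and 3 ESC libraries, the number of libraries limits the precision; arrays give no read depth. Replicate numbers were checked as pairs: VSEL and ESC arrays of the same number had deviations correlated at -0.0114, 0.156 and -0.0882, so no pairing was used.

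Alternatives changed the array averaging, the samples fitted, array weights, normalization, filters on low values, the probe set rule, the levels and the libraries. The genes, lists and tests were chosen with earlier results of these data known. Named genes were the 10 largest called differences in each direction among non-overlapping genes, the first 4 and the top called members of each list, the leading shared, absent, added, single-library and VSEL-only genes, and Zfp42, Pou5f1, S100a9, Lcn2, Ly6a and Ptprc; not every gene the rule names is reported here. Outside that rule, and chosen after their values were seen, were Abce1, Acp1, Aldoa, Atp5b, Bmp4, Camp, Cd22, Cdc20, Cdt1, Cenpp, Cldn5, Cox4i1, Cycs, Dab2, Dntt, Dut, Ermap, Etv4, Fcrla, Fen1, Fgfr1, Foxa2, Gata1, Gfi1, H2ax, Hlf, Hoxa9, Ifit3, Iglv1, Irf7, Itgam, Lamb1, Lcmt1, Lss, Mcm5, Mcm7, Mecom, Meis1, Mkrn1, Mmp8, Ms4a1, Mthfd1l, Nr4a2, Orc1, Paics, Pgam1, Phlda3, Rbmxl1, Rps27l, Snrnp40, Snrpg, Ube2c, Utp18 and Vpreb1.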

Additional observations from a re-analysis of the deposited data

How the results depend on the processing

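Counts moved with the settings more than the named differences did. Genes called higher numbered 1152 and moved by over 1.5 times to 1952 with the 9 arrays kept separate, 602 with VSEL and ESC libraries only, 410 with limma array weights, 1751 after another quantile normalization, 2167 with arrays centred on ribosomal proteins, 521 among genes with a mean above the median, 547 among genes above 6.5 in at least 1 cell type, 521 with a difference of at least 1 and 3213 over single probe sets. Genes called lower, 1936, moved to 1050 with array weights, 1085 after cyclic loess and 3121 over single probe sets. Shared genes, 189, became 97 without probe sets that can match several transcripts, 27 with an interval within -0.5 to 0.5 and 450 over single probe sets. The 2 absent genes became 1 with the 9 arrays kept separate, with the replicate block and without multi-transcript probe sets, and 0 after quantile normalization, cyclic loess, ribosomal centring and the mean of probe sets; levels of 10 and 6 gave 0 and levels of 8 and 7 gave 290. Added genes, 80, became 38 and 136 at those levels and 124 over single probe sets. Leaving out 1 array, or VSEL 2 and 3 together, gave 448 to 1319 higher, 1278 to 2062 lower, 140 to 217 shared, 1 to 16 absent and 78 to 239 added genes; without VSEL 2 and 3 together 15 were absent and 202 added.

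With the replicate number as a block on the 9 arrays, 1161 genes were higher and 2368 lower; the numbers do not pair the libraries, and 9 of 129 named calls were lost. Of the 129, 91 held with any library left out, and 96 with array weights. Reversed signs were few. After cyclic loess Birc5 was 0.039 and Rbmxl1 0.10. With the mean of probe sets Nr5a2 was -0.11, Rrm1 -0.27 and Rrm2 -1.22. Without probe sets that can match several transcripts Nr5a2 was -0.998, Rrm2 -2.49 and Cdc20 -2.43. For the other changes the cause was not tested. Genes near the array background, such as those read below 4, have no firm order.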

Other observations

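Immediate early genes, which cells switch on within minutes of a stimulus or of handling, were far from uniform. The list medians of 18 genes were 7.87 and 8.13 in VSEL 1 and VSEL 2+3, 8.03 to 8.38 in ESC and 12.36 to 13.08 in HSC. Of the 18, 5 were higher in VSEL than in ESC and 2 lower, counts of limma calls with 1152 of 18193 genes higher and 1936 lower. Junb, a subunit of AP-1, was 11.40 and 10.95 in VSEL, 8.47, 8.4 and 8.57 in ESC and 14.10, 14.21 and 13.98 in HSC, a rise of 2.70 over ESC (SE 0.18, adjusted p = 9.2e-04). Zfp36, which speeds the decay of inflammatory mRNAs, rose by 5.41 (adjusted p = 0.0023), and the antiproliferative genes Btg1 and Btg2 rose by 4.26 and 3.43 (adjusted p = 0.00525 and 0.00266). The remaining higher call was Nr4a2, a nuclear receptor, and the lower calls were Egr1 and Fos, transcription factors. Nr4a2 lost its call without VSEL 1, VSEL 3, ESC 1, ESC 2, ESC 3, HSC 1, HSC 2 or HSC 3 (adjusted p from 0.0555 to 0.133), Egr1 without VSEL 1, VSEL 2+3, ESC 1, ESC 2 or ESC 3 (adjusted p from 0.0677 to 0.106) and Fos without VSEL 2+3 or ESC 1 (adjusted p from 0.0663 to 0.0875).

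Xist, the RNA that coats the inactive X chromosome of female cells, was 10.94 and 9.55 in VSEL, 5.25, 6.38 and 5.27 in ESC and 8.16, 9.29 and 7.98 in HSC, a rise of 4.61 over ESC (SE 0.62, adjusted p = 0.006). The Y-linked gene Eif2s3y was 5.26 and 4.32 in VSEL, 5.93, 5.82 and 7.85 in ESC and 3.54, 3.74 and 3.60 in HSC and was not called. These values are given without a test of what they mean for the sex of the animals or the line.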
